A study of Mus musculus with 18 samples.

Results

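The genes described here encode the extracellular and membrane part of Wnt signalling: the Wnt ligands, the proteins that modify and carry them out of the cell, the Frizzled receptors, the Lrp coreceptors and the secreted inhibitors. They were chosen by gene symbol, and 44 of the 52636 genes of the tables were members. RNA was measured in 18 libraries of mouse colon, 6 of sorted epithelial cells and 12 of isolated crypts, with 1 crypt library per mouse. Sorted cells came from adult mice of the Olfr78-GFP line, in which a GFP-IRES-tauLacZ cassette replaces the coding exon of Olfr78, an odorant receptor for short-chain fatty acids. They comprised 2 Epcam+ve samples from a single WT mouse, 2 pools of Epcam+ve/GFP+ve cells from heterozygous (HE) mice and 2 such pools from homozygous (KO) mice, each pool drawn from 2 mice. HE cells keep 1 intact Olfr78 allele and KO cells none, so GFP marks the cells in which the Olfr78 locus is active in both. Crypts of this line came from 2 WT and 5 KO mice. In the Vil1Cre-Olfr78fx line, a Cre driven by the epithelial Villin promoter deletes floxed Olfr78. Its crypts came from 3 mice titled control and 2 titled epithelial knockout (eKO). The genotype labels of that line were HE/WT for control mice 1 and 3, WT/HO for control mouse 2, HE/HO for eKO mouse 1 and WT/HO for eKO mouse 2. The age of the crypt mice was not given in the sources used here.

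Wnt ligands are lipid-modified secreted proteins, acylated by Porcn and brought to the cell surface by Wls. Binding of a Wnt to a Frizzled and to Lrp5 or Lrp6 stabilizes beta-catenin, which acts with Tcf/Lef factors on target genes. Some ligands, such as Wnt5a, mainly use Frizzled and Ror receptors without beta-catenin. In the colon this signal is strongest at the crypt base, where stem cells divide, and most of the ligand comes from the mesenchyme below. Enteroendocrine cells are the scattered hormone-secreting cells of the epithelium, and Chga, Chgb and Tph1 are among their markers.

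Levels are given as CP20M, the reads of a gene scaled to 20000000 per library. A single read stood for 37.5 CP20M in KO pool 1, for 8.94 to 13.3 in the remaining sorted libraries and for 1.82 to 3.24 in crypts. The Olfr78 level was 4822 and 4401 CP20M in HE pools, 977 and 837 in KO pools, 135 and 21 in Epcam+ve samples, 88 and 111 in WT crypts and 7 to 42 in KO crypts. In the other line it was 105, 61 and 124 CP20M in control crypts, 21 in eKO mouse 1 and 73 in the library labelled eKO mouse 2. This library lay within the range of the controls and carried the same genotype label as control mouse 2. The paper's controls either had 2 floxed Olfr78 alleles without Cre or carried Cre with WT Olfr78. If the labels give Cre first and Olfr78 second, WT/HO is the former, a control genotype. Results of that line are therefore given with and without this library. The archive labels all 6 sorted libraries enteroendocrine, but Chga was at 3504 and 3380 CP20M in Epcam+ve samples, against 107136 to 304540 in the 4 GFP+ve pools. The methods describe the Epcam+ve samples as cells of a WT mouse without GFP, and their 2 samples hold no spread between mice.

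Of the 44 genes, 19 reached 40 CP20M in at least 2 libraries and 22 were below 40 CP20M in every library. Receptors and coreceptors were the well-measured part, with 9 of 10 Frizzled genes and both Lrp genes among those 19. Ligands were the poorly measured part: 4 of 19 reached that level (Wnt2b, Wnt4, Wnt5a and Wnt8b), 14 stayed below 40 CP20M everywhere, and 16 had no more than 3 reads in any sorted library. Wnt3a, a classical canonical ligand, had no read in any of the 18 libraries, and Wnt3 had no more than 18 CP20M. Of the 5 Dickkopf genes, which encode inhibitors of the coreceptors and the related Dkkl1, none reached 40 CP20M in 2 libraries. Since 3 reads amounted to 26.8 CP20M in the deepest sorted library and to 113 in KO pool 1, levels of this size could not be told from 0 there.

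**Figure D1:**
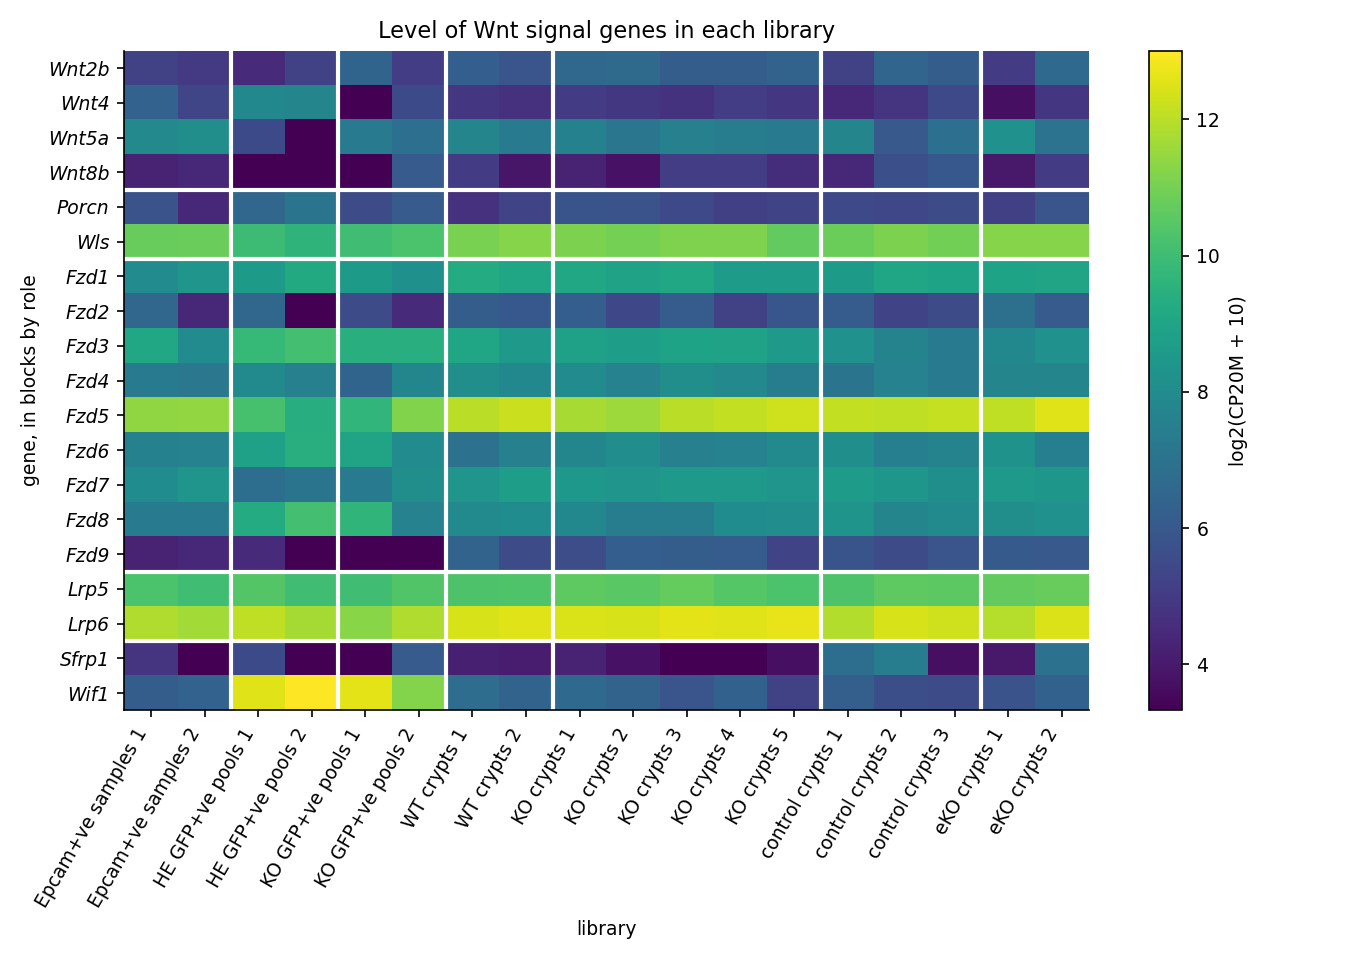
Level of the 19 genes with at least 40 CP20M in at least 2 libraries, as log2(CP20M + 10), by library (columns) and gene (rows, in blocks of ligands, ligand processing, receptors, coreceptors and ligand-binding inhibitors). Fzd5, Lrp6, Lrp5 and Wls are bright in all 18 libraries, and Wif1 is bright in the 4 GFP+ve pools, where it lies between 2348 and 8228 CP20M, and at most 99 CP20M elsewhere.

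Per kilobase of exon, all 4 crypt groups shared their leading genes. Fzd5, a Frizzled receptor of the intestinal epithelium, was first in each of them, at 650 ± 72.3 CP20M per kb in WT crypts (SD, n = 2) and 578 ± 113 in KO crypts (SD, n = 5). Lrp6 was second, at 421 ± 22.7 in WT and 436 ± 32.5 CP20M per kb in KO crypts, followed by Wls at 258 ± 22.5 and 234 ± 28.8. Fzd1 and Lrp5, at 132 ± 16.5 and 130 ± 3.34 CP20M per kb in WT crypts, did not differ beyond their spread. The 2 Epcam+ve samples had the same 3 genes at the top, with Fzd5 at 397 ± 7.67, Lrp6 at 252 ± 22.2 and Wls at 198 ± 2.49 CP20M per kb (SD, n = 2). The GFP+ve pools had a different leading gene. In HE pools Wif1 was first with 2914 ± 674 CP20M per kb, followed by Lrp6 with 282 ± 51.7, and Fzd8, Fzd5, Lrp5, Fzd6, Fzd1 and Wls followed between 143 and 100 CP20M per kb with ranges that overlapped.

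The first comparison asked which genes distinguish Olfr78-expressing cells from the epithelium as a whole. The genotype, the mice and the number of cells sorted also differed with the group and cannot be told apart from cell type here. Wif1, which encodes a secreted protein that binds Wnt ligands and keeps them from their receptors, stood out. It was at 63 and 72 CP20M in Epcam+ve samples and at 5915 and 8228 in HE pools, which rested on 7, 7, 514 and 617 reads. The groups were far apart, with a ratio of the means of 105. The log2 fold change on log2(CP20M + 10) was 6.50 ± 0.27 (SE), with an adjusted p of 8.19e-06 by limma, and Wif1 was called by edgeR and DESeq2 as well. Of 15 members tested, it was the only one past the thresholds of the methods (an adjusted p under 0.001 and a log2 fold change beyond 2), which 1.75% of the 16355 genes passed. In bulk RNA, fewer cells of a type and less RNA per cell cannot be told apart.

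Wif1 lies on chromosome 10 of GRCm38. The 250 bases before its RefSeq start, on the plus strand at chr10:121033754-121034003 (GRCm38.p6), are shown with those of Fzd5, the receptor with the highest level in the epithelium, which was lower in the same cells (minus strand, chr1:64737751-64738000) to show the sequence next to the start of 1 member from each direction. Capitals mark E-boxes (CANNTG), the general form bound by basic helix-loop-helix factors, a family that includes Neurod1.
Wif1: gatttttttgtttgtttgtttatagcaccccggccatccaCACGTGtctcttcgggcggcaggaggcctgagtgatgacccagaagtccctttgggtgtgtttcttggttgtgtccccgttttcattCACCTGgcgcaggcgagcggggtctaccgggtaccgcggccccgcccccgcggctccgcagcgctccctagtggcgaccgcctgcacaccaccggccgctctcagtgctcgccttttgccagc
Fzd5: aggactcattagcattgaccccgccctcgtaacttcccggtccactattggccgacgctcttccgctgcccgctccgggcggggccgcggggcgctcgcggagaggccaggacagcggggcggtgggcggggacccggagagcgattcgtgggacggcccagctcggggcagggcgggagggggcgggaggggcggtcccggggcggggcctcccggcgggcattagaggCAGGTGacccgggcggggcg
The Wif1 stretch held 2 E-boxes and the Fzd5 stretch 1, and 66.2% of 32851 RefSeq promoter windows of the same length held at least 1. Neither stretch held CAGATG, an E-box form favoured by Neurod factors and counted within CANNTG (14.4% of all windows), or the Tcf/Lef core CTTTGA (13.8%), on either strand. The GC content was 62.8% for Wif1 and 76.4% for Fzd5, against a median of 52.4% over all windows. RefSeq windows were at hand for 28 of the 44 members.

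Wif1 and the enteroendocrine marker Chga were both high in the GFP+ve pools and low in the remaining libraries. The level of Wif1 was 17.98 and 21.3 CP20M per 1000 CP20M of Chga in Epcam+ve samples, 24.4 and 27.0 in HE pools and 37.5 and 21.9 in KO pools. In the 12 crypt libraries it was between 13.0 and 39.8. Across all 18 libraries Wif1 thus spanned a 294-fold range and Chga a 176-fold range, while their ratio spanned 3.07-fold. This contrast rests on the GFP+ve pools against the rest: within the 12 crypt libraries Wif1 spanned 3.54-fold, Chga 2.26-fold and the ratio 3.07-fold, so that dividing by Chga did not give a tighter value than Chga itself. In Epcam+ve samples and crypts the ratio rests on 7 to 39 reads of Wif1. For Fzd8, by contrast, the ratio was 1.74 to 4.70 in GFP+ve pools and 41.1 to 155 in Epcam+ve samples and crypts.

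**Figure D2:**
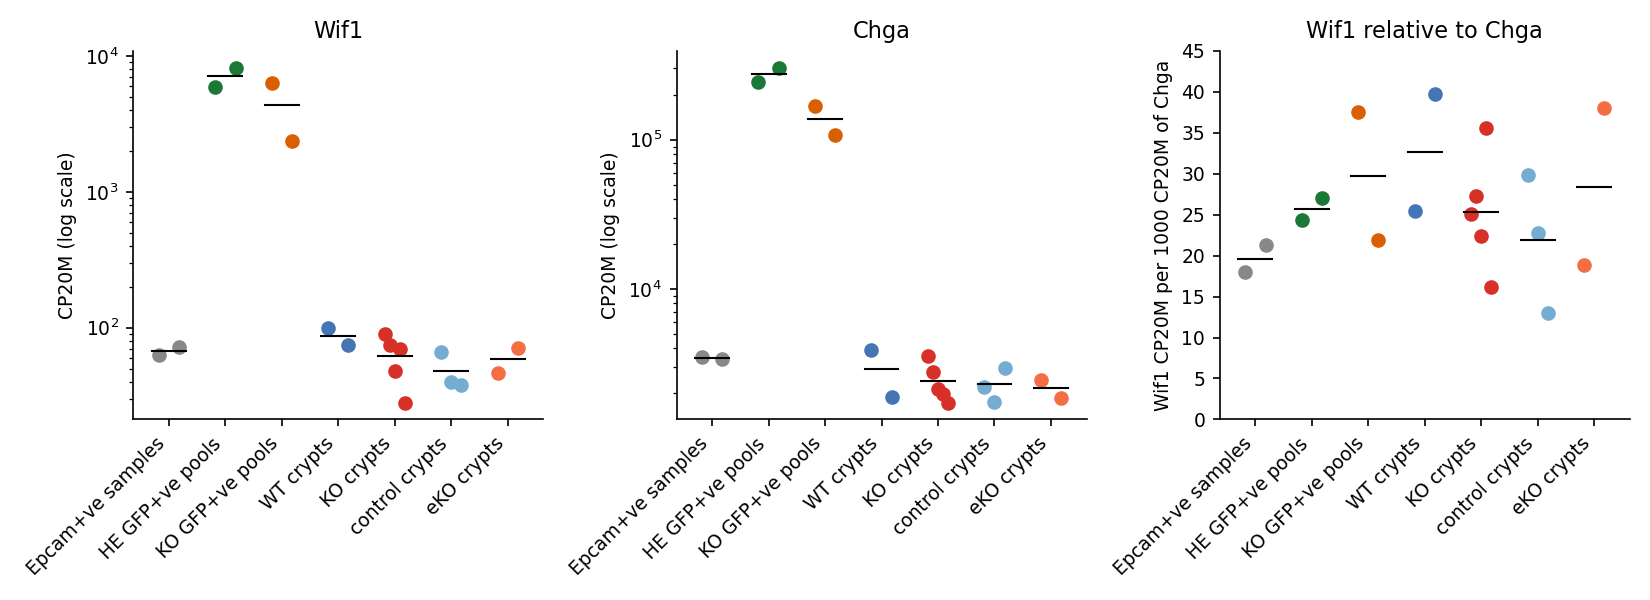
Level of Wif1 (left) and Chga (middle) in CP20M on log axes, and Wif1 per 1000 CP20M of Chga on a linear axis (right), for each library (points) with group means (lines). Wif1 and Chga are both high in the GFP+ve pools, and their ratio lies between 13.0 and 39.8 in all 18 libraries.

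A less strict rule, an adjusted p under 0.05 with no minimum fold, was chosen after the values were seen. Under it 5 members were higher and 3 lower in HE pools, against 12.5% of all genes tested that were higher and 11.3% that were lower. Besides Wif1 they were Fzd8, Fzd6, Fzd3 and Wnt4 on the higher side and Wnt5a, Fzd5 and Wls on the lower side. Wnt4, Porcn and Wnt5a had 40 CP20M in 2 libraries only in the group where they were higher, which is how they entered the test, so a difference was built into their choice. Among the other 12 members, 4 were higher and 2 lower. The median log2 fold change was 0.46 over the 15 members and -0.05 over all genes.

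Among the ligands, Wnt5a had its higher level in Epcam+ve samples and Wnt4 in HE pools. Wnt5a was at 224 and 268 CP20M in Epcam+ve samples and at 35 and 0 in HE pools, which is 25, 26, 3 and 0 reads. Its log2 fold change was -3.59 ± 0.79 (SE, adjusted p = 0.0136), a fitted value that depends on the pseudocount because of the 0. With a pseudocount of 1 it was -5.36 (adjusted p = 0.0777) and with one of 40 it was -2.38 (0.0035). Without either Epcam+ve sample Wnt5a no longer reached the level needed for a test. Wnt4, a ligand known from epithelial morphogenesis, was at 72 and 31 CP20M in Epcam+ve samples and 219 and 201 in HE pools, from 8, 3, 19 and 15 reads. Its log2 fold change was 1.92 ± 0.58 (adjusted p = 0.0431), but it did not stay under 0.05 without Epcam+ve sample 1 (0.0523) or sample 2 (0.231), with DESeq2 (0.101), with a pseudocount of 1 (0.0726) or without a filter (0.0562). Neither ligand overlapped between groups, at few reads, and the share of all genes that separated likewise was not computed. Each entered the test only through the group where it was higher, so this separation was partly built in.

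In ligand processing, Wls was lower and Porcn was not resolved. Wls was at 1726 and 1757 CP20M in Epcam+ve samples and 979 and 787 in HE pools, a ratio of 0.507. The log2 fold change was -0.98 ± 0.22 (adjusted p = 0.0140), which rose to 0.0761 and 0.0916 without Epcam+ve sample 1 or 2. Porcn was at 45 and 11 CP20M against 81 and 121, a log2 fold change of 1.68 ± 0.70 with an adjusted p of 0.119.

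By limma no Frizzled gene passed the thresholds of the methods, and 4 of the 8 tested (Fzd3, Fzd5, Fzd6 and Fzd8) passed the less strict rule. Fzd8 was at 144 and 155 CP20M in Epcam+ve samples and 610 and 1094 in HE pools, a 5.70-fold ratio of means. Its log2 fold change was 2.38 ± 0.38 (adjusted p = 0.0039), and edgeR and DESeq2 both placed it past the stricter thresholds of the methods, with adjusted p of 2.93e-04 and 4.77e-05. No Epcam+ve sample reached the level of either HE pool.

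Fzd6 and Fzd3 lay on the same side. Fzd6, a receptor best known from planar cell polarity, was at 179 and 185 CP20M in Epcam+ve samples and 461 and 667 in HE pools (log2 fold change 1.56 ± 0.36, adjusted p = 0.0169, but 0.0579 and 0.0599 without Epcam+ve sample 1 or 2). Fzd3, which also acts in planar polarity and axon guidance, was at 555 and 247 against 887 and 1094 (1.38 ± 0.39, adjusted p = 0.0332, but 0.193 without Epcam+ve sample 2 and 0.0671 with a pseudocount of 1).

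Fzd5, the leading receptor of the epithelium, went the other way. It was at 2709 and 2784 CP20M in Epcam+ve samples and 1163 and 654 in HE pools, a ratio of 0.331. Its log2 fold change was -1.64 ± 0.28 (adjusted p = 0.0049). Fzd7, a receptor of intestinal stem cells, was at 251 and 319 against 104 and 121, without overlap, with a log2 fold change of -1.26 ± 0.44 and an adjusted p of 0.0726. Fzd1 (242 and 319 against 380 and 587 CP20M) and Fzd4 (152 and 134 against 231 and 174) had adjusted p of 0.176 and 0.502. The 10 Frizzled genes together summed to 4376 and 4186 CP20M in Epcam+ve samples and 3941 and 4391 in HE pools, and these sums overlapped.

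The coreceptors did not separate. Lrp6 was at 3665 and 3236 CP20M in Epcam+ve samples and 4361 and 3361 in HE pools, and Lrp5 at 1234 and 1038 against 1358 and 1041. Their log2 fold changes were 0.15 with a 95% interval from -0.29 to 0.60 and 0.07 with one from -0.47 to 0.61. The other secreted inhibitors gave 0 to 5 reads per sorted library, among them Sfrp1 and the deacylase gene Notum.

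**Figure D3:**
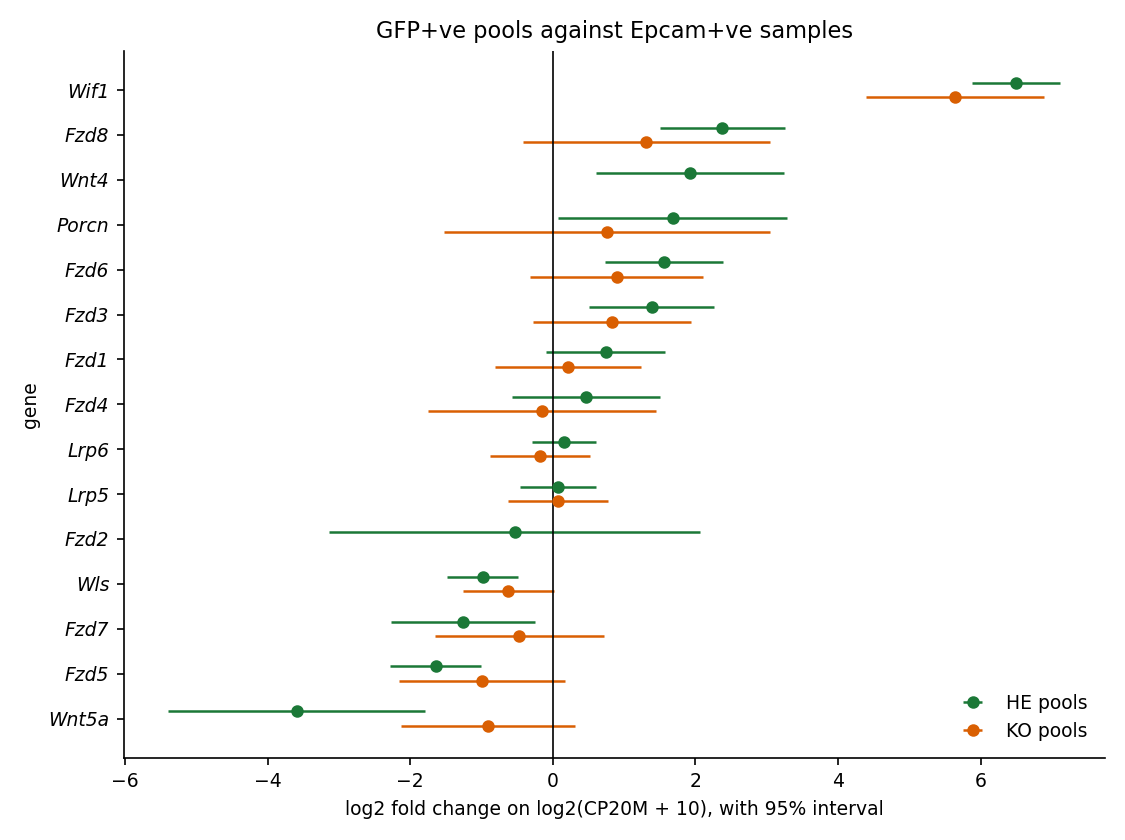
Log2 fold change on log2(CP20M + 10) with its 95% interval for members tested in HE pools against Epcam+ve samples (green, 15 genes) and KO pools against the same samples (orange, 13 genes). Wif1 is far to the right in both, at 6.50 and 5.64, and the intervals of the other genes in KO pools all include 0.

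Other genes of the pathway were followed on a list of 63, of which 49 were tested in this comparison. One, Celsr3, was called. Celsr3, an atypical cadherin of planar polarity that acts with Fzd3 in axon guidance, was at 0 and 21 CP20M in Epcam+ve samples, 2233 and 1774 in HE pools and 1840 and 651 in KO pools, with an adjusted p of 2.41e-04 for HE pools. It entered the test only through the HE pools. Under the less strict rule 9 of the 49 were higher and 10 lower, against 12.5% and 11.3% of all genes tested. The median log2 fold change was -0.11 over the list against -0.05 over all genes. Among the 10 with the smallest p were Myc, Ccnd1, Celsr1 and Lgr4 on the lower side. Myc and Ccnd1, proliferation genes and classical Wnt targets, had means of 241 against 945 CP20M and 442 against 1805, with log2 fold changes of -1.93 ± 0.29 and -2.07 ± 0.32. The corepressor genes Tle2 and Tle1 and the beta-catenin cofactor gene Bcl9 were higher, with log2 fold changes of 2.98 ± 0.49, 1.29 ± 0.25 and 1.54 ± 0.26. Trabd2b, a membrane protease that inactivates Wnt proteins, had 3.08 ± 0.63, and the Wnt5a receptor gene Ror2 had 1.93 ± 0.50. The feedback target Axin2 was lower with -0.999 ± 0.28 (adjusted p = 0.0324). Markers of stromal cells moved with this comparison as a list, at a sum of 709 and 528 CP20M in Epcam+ve samples and 3205 and 3535 in HE pools, of which Vim alone was 2682 and 3481. Col1a1 was at 12 and 0 CP20M in HE pools against 188 and 155, and Lum had 0 in both groups. Dcn was at 162 and 0 in HE pools against 27 and 11, and Col3a1 at 150 and 0 against 45 and 31. Pdgfrb was at 104 and 54 against 90 and 83, and Pdgfra, Col1a2, Myh11 and Acta2 were at 0 to 35 in HE pools. Leukocyte markers summed to 187 and 228 against 162 and 156. Endothelial markers summed to 1520 and 1734 against 135 and 340, nearly all of it Pecam1, while Cdh5 had no read. The part of these markers in the results was not tested.

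KO pools were then set beside the same Epcam+ve samples, so both comparisons share these samples. Wif1 was at 6308 and 2348 CP20M in KO pools, from 168 and 202 reads, with a log2 fold change of 5.64 ± 0.51 and an adjusted p of 0.0199. By limma no member of 13 and no gene of 15779 (0.0%) passed the thresholds of the methods, with 1 member and 2925 genes at an unadjusted p under 0.05. Both edgeR and DESeq2 called Wif1, with adjusted p of 8.90e-04 and 1.52e-18. In limma fits that left out 1 library, Wif1 had log2 fold changes of 4.93 without KO pool 1 and 6.35 without KO pool 2. The lone KO pool was then assumed to vary like the 2 samples of the single WT mouse. Under the less strict rule Wif1 was the only member, where 0.621% of all genes were higher and 0.114% lower. The median over all genes was -0.26 on the log2 scale, and -0.12 after median-of-ratios rescaling, so small differences are read relative to that shift.

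The KO pools differed for some members and were near each other for others. In KO pool 1 and KO pool 2, respectively, Fzd8 was at 789 and 186 CP20M, Fzd5 at 826 and 2290, and Fzd6 at 489 and 245. These values rested on 21, 22 and 13 reads in pool 1 and 16, 197 and 21 in pool 2. For these 3 genes pool 1 was close to the HE pools and pool 2 close to the Epcam+ve samples. On a log2 scale where the mean of Epcam+ve samples is 0 and that of HE pools is 1, Fzd8, Fzd5 and Fzd6 were at 0.98, 1.05 and 0.89 in pool 1 and at 0.13, 0.16 and 0.26 in pool 2. Fzd3 was at 0.61 and 0.59 and Wls at 0.74 and 0.53 in pools 1 and 2, and Wnt5a at 0.19 and 0.32, so these did not separate the pools in the same way. Wif1 was at 0.98 and 0.76, near the enteroendocrine marker Chga at 0.89 and 0.79. Of the 8 members past the less strict rule in HE pools, 6 were nearer to HE pools in pool 1 and 3 in pool 2. These 8 were chosen by the same HE and Epcam+ve values that set the scale, so the counts carry that choice. Wnt4 and Wnt5a among them entered the test through 1 group only. No share over all genes chosen alike was computed. Chga itself was at 168049 and 107136 CP20M in KO pools against 242823 and 304540 in HE pools, and its part in these differences was not tested. Wnt4 had 0 reads and 3 reads in the KO pools. Since KO pool 1 held 532703 reads on genes, the fewest of all libraries, a count of 0 there allows up to 113 CP20M.

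KO and HE pools were compared directly to ask what loss of Olfr78 does to these cells. None of the 11 members above 40 CP20M in all 4 pools was called at an adjusted p under 0.05 by limma, edgeR or DESeq2, and none had an unadjusted p under 0.05. Over all 11892 genes limma called 0.0% (503 at an unadjusted p under 0.05), edgeR 0 genes and DESeq2 8. Wif1 had a log2 fold change of -0.86, with a 95% interval from -1.90 to 0.19, and Fzd8 one of -1.06, from -2.59 to 0.46. Fzd5 had 0.65, from -0.54 to 1.85. Of the 11, 4 did not overlap between the genotypes (Wls, Fzd3, Fzd1 and Fzd7), and of all genes tested 35.0% did not. Both Wls (1052 and 1209 CP20M in KO pools, 979 and 787 in HE pools) and Fzd3 (676 and 663 against 887 and 1094) had an adjusted p of 0.931. The criterion of the methods, group means apart by over 2 average SDs and by over 1.5-fold, marked 1 member as higher, Fzd7 (151 and 268 against 104 and 121 CP20M), and no member as lower, where it marked 3.23% of all genes as higher and 9.98% as lower. Without KO pool 1, 3 members were called, Fzd5 at 1.38, Fzd8 at -2.08 and Wif1 at -1.57, and so were 373 of 13326 genes (2.8%), 120 higher and 253 lower. The lone KO pool 2 was then assumed to vary like the HE pools.

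Epcam+ve samples were set against WT crypts, to place the sorted cells beside the intact crypt. Dissociation and sorting, the RNA kit and the amount of input all differed with the group. Both Epcam+ve samples came from 1 mouse, and the crypts from 2. These factors cannot be told apart here. By the rule of an adjusted p under 0.05 and a log2 fold change beyond 1, no member of 14 was called, against 9.91% of 15434 genes, and edgeR and DESeq2 called none either. By limma 6 of the 14 members had an unadjusted p under 0.05, as did 5933 of the 15434 genes. Under the less strict rule without a minimum fold, 3 members were lower and none higher, where 18.5% of all genes were lower and 6.07% higher. These were Lrp6 (3665 and 3236 CP20M against 5537 and 5975 in WT crypts, -0.74 ± 0.12), Fzd5 (2709 and 2784 against 4141 and 4848, -0.70 ± 0.12) and Fzd1 (242 and 319 against 605 and 507, -0.97 ± 0.22). The median of all genes was -0.26, and -0.07 after rescaling, which left -0.54, -0.50 and -0.77 for the 3 genes. Fzd1 lost an adjusted p under 0.05 without either WT crypt library (0.206 and 0.0738), and Fzd5 without WT crypt 2 (0.0745). Fzd1 also lost it after rescaling (0.057), with DESeq2 (0.201) and without a filter on low values (0.0974), and without a filter Lrp6 and Fzd5 both had 0.0826. Fzd9 was low in the sorted cells, with 9 and 11 CP20M in Epcam+ve samples and 75 and 37 in WT crypts, though it did not reach the level needed for a test here. Stromal markers summed to 3225 and 1312 CP20M in WT crypts and 709 and 528 in Epcam+ve samples, and Ptprc of leukocytes was at 413 and 374 against 54 and 31. Of the wider list, Gpc3, a glypican that binds Wnt proteins, was the only one called, at 0 CP20M in both Epcam+ve samples and 88 and 53 in WT crypts, and it entered the test only through the WT crypts.

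Crypts of the Olfr78-GFP line asked whether loss of Olfr78 in the whole animal alters these genes in the epithelium. None of the 16 members tested in KO against WT crypts passed an adjusted p of at most 0.2 with a change beyond 1.5-fold, by limma, edgeR or DESeq2, where limma called 9.48% of 15975 genes. One member of the 16, Fzd6, had an unadjusted p under 0.05, as did 4130 of the 15975 genes. Fzd6 was at 112 and 177 CP20M in WT crypts and 210, 256, 174, 185 and 240 in KO crypts, from 42 to 106 reads. WT crypt 1 was below all KO crypts and WT crypt 2 lay within their range. The log2 fold change was 0.55 ± 0.20 with an adjusted p of 0.116, under the minimum fold, and it ranged from 0.24 to 0.86 when single libraries were left out. Fzd6 passed both thresholds without KO crypt 3, as did 1484 of 15871 genes, and without KO crypt 4, as did 1431 of 15757. The highest value, 0.86, came without WT crypt 2, with 1 WT library left.

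The main receptors and coreceptors of the crypt overlapped between genotypes. Fzd5 was at 4141 and 4848 CP20M in WT crypts and 3392, 3068, 4089, 4396 and 5025 in KO crypts (log2 fold change -0.19, 95% interval from -0.54 to 0.16). Lrp6 was at 5537 and 5975 against 5637, 5506, 6212, 5867 and 6598 (0.05, from -0.16 to 0.25). Lrp5 was at 1244 and 1290 against 1563, 1458, 1657, 1407 and 1220 (0.20, from -0.05 to 0.45). Wls, at 2128 and 2408 against 2179, 2021, 2238, 2231 and 1635 CP20M, had -0.14, from -0.41 to 0.12.

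Wif1 in crypts was near the level of the Epcam+ve samples. It was at 99 and 75 CP20M in WT crypts and 89, 75, 48, 70 and 28 in KO crypts, from 12 to 37 reads. The ranges overlapped, and the log2 fold change was -0.50 with a 95% interval from -1.22 to 0.23. Chga was at 3896 and 1886 CP20M in WT crypts and 1727 to 3552 in KO crypts. Of 50 other pathway genes tested, 2 were called, where 9.48% of all 15975 genes were. Lgr5, the receptor for R-spondins and a marker of stem cells, was at 568 and 614 CP20M in WT crypts and 376, 334, 401, 254 and 383 in KO crypts (log2 fold change -0.76 ± 0.16, adjusted p = 0.0195). In the other line Lgr5 was at 410, 415 and 360 CP20M in control crypts. It was at 261 in eKO mouse 1 and 424 in the library labelled eKO mouse 2, and none of the 50 genes was called there. Gpc3 was at 88 and 53 CP20M in WT crypts against 5 to 43 in KO crypts (-1.01 ± 0.45, adjusted p = 0.184). Gpc3 reached the level needed for a test only through the WT crypts, so its lower level in KO crypts was partly built in. The sum of stromal markers was 1001 to 2275 CP20M in KO crypts and 3225 and 1312 in WT crypts. Its part in the Gpc3 result was not tested.

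In the Vil1Cre-Olfr78fx line, none of 17 members was called in eKO against control crypts, and none had an unadjusted p under 0.05 by limma, edgeR or DESeq2. Of all 15401 genes limma called 0.0% (127 at an unadjusted p under 0.05), edgeR 0 and DESeq2 9. Fzd5 was at 4301 and 5952 CP20M in eKO crypts and at 4450, 4353 and 4531 in control crypts, and Lrp6 at 3887 and 5796 against 3781, 5532 and 5097. Fzd4 (123, 186 and 147 against 200 and 204), Wls (1809, 2203 and 1978 against 2410 and 2449), Lrp5 (1259, 1528 and 1510 against 1620 and 1708) and Fzd9 (47, 38 and 48 against 57 and 55) were higher in both eKO libraries than in every control, as were 7.58% of all genes tested, and their log2 fold changes were 0.22 to 0.41 with intervals that included 0. Wif1 was at 46 and 71 CP20M in eKO crypts and at 66, 40 and 38 in control crypts. Leaving out the library labelled eKO mouse 2 gave log2 fold changes of 0.39 for Fzd4, 0.27 for Wls, 0.18 for Lrp5 and 0.31 for Fzd9. Without the library labelled eKO mouse 2, no member was called, 1 had an unadjusted p under 0.05 (Fzd2) and the smallest adjusted p was 0.678.

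Sfrp1, a secreted Frizzled-related inhibitor, varied widely between mice of 1 genotype group. It was at 102, 159 and 3 CP20M in the control mice and at 6 and 117 in the eKO mice, while WT and KO crypts of the other line held 0 to 9. Wnt5a likewise varied, at 204, 55 and 107 CP20M in the control mice against 292 and 119 in the eKO mice. Control mouse 2 and the library labelled eKO mouse 2, which share a genotype label, were the highest of their groups for Sfrp1. The stromal marker list summed to 606, 2392 and 1200 CP20M in control crypts and to 1144 and 2791 in eKO crypts, highest in the same 2 libraries, and its part in the Sfrp1 levels was not tested.

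**Figure D4:**
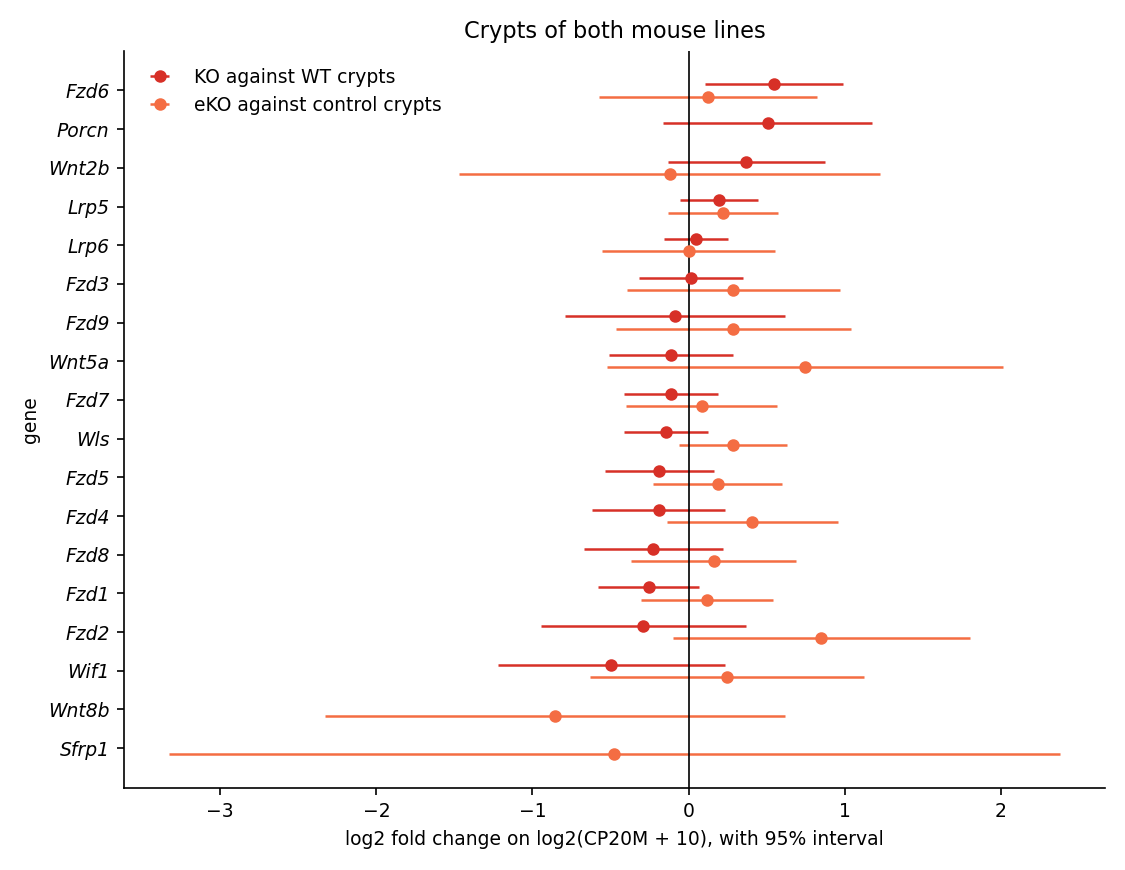
Log2 fold change on log2(CP20M + 10) with its 95% interval for members tested in KO against WT crypts (red, 16 genes) and in eKO against control crypts (orange, 17 genes). All intervals include 0 except that of Fzd6 in KO against WT crypts, which runs from 0.10 to 0.99. The eKO group includes the library labelled eKO mouse 2.

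With both lines in 1 fit and the line as a covariate, none of 18 members was called, against 0.0243% of 16447 genes, and edgeR and DESeq2 called none. Of the members Lrp5 alone had an unadjusted p under 0.05 (1267 of all genes did), with a log2 fold change of 0.21 ± 0.09 and an adjusted p of 0.626. The median log2 fold change of the 18 members was 0.07, and -0.02 without the library labelled eKO mouse 2. Whether the effect of genotype differed between the lines was tested for the same 18 members, and none was called at an adjusted p of at most 0.2, against 0.0304% of all genes. The members Fzd2 and Wls had an unadjusted p under 0.05 there (1442 of all genes did), with differences of 1.14 ± 0.49 and 0.43 ± 0.19 on the log2 scale. Wls was thus at -0.14 in KO crypts and 0.29 in eKO crypts against their controls. Without the library labelled eKO mouse 2 the difference was called for 3 members, Fzd2 at 1.54, Wnt5a at 1.47 and Wnt2b at -1.28, and for 4296 genes of 16354, with 1 eKO mouse left.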

How the data were processed

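RNA-seq of 18 mouse colon libraries was used, grouped by sample titles. According to the methods, the authors used STAR for alignment to GRCm38 and HTSeq for gene counts. The values deposited for sorted cells are a signal, reads per gene scaled to a library total of 20000000 and rounded up (CP20M). For crypts, the authors deposited a score made in the same way, with 1 table per line for crypts. Whole reads were recovered from the value of 1 read. A value was taken as whole where a whole number of reads, scaled and rounded up, gave it exactly, which 99.84% to 99.995% of values did. Any whole number would do so in 2.66% to 11.2% of cases in sorted libraries but in 30.9% to 55.0% in crypts, where recovered reads are less certain. They came to 532703 to 2237474 reads on genes in sorted libraries and 6175301 to 10995300 in crypts. Genes with at least 40 CP20M in 2 libraries compared (above 40 in all 4 for KO against HE pools) were tested with limma 3.58.1 on log2(CP20M + 10) with Benjamini-Hochberg adjustment, after tests on simulated data. The log scale understates changes of low genes. Alternatives were pseudocounts of 1 and 40, rescaling, no filter, edgeR 4.0.16 and DESeq2 1.42.0 on recovered reads, a replicate block, no covariate for the line and leaving out each library. Exon lengths came from GENCODE annotation of GRCm38 and promoters from RefSeq. The members and lists were chosen with earlier results of these data known. Values in every library were given for Wif1, for called members and for those averaging at least 200 CP20M in a group. Members outside this rule (Porcn, Sfrp1, Fzd9, Wnt3, Wnt3a and Fzd2) and Axin2 were chosen after their values were seen. P-values measure the spread between libraries, which for Epcam+ve samples is technical. Floors cover counting error only, and 95% intervals are those of limma, from the spread between libraries.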

Additional observations from a re-analysis of the deposited data

How the results depend on the processing

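The depth of the sorted libraries limited low genes, where a few reads decide a value. For HE pools against Epcam+ve samples, 2 members were called with edgeR and 2 with DESeq2 (Wif1 and Fzd8) against 1, 1 to 4 when single libraries were left out (4 without HE pool 1: Wif1, Fzd8, Fzd5 and Wnt5a, where 1195 of 15111 genes were called, 767 of them lower, against 287 with all libraries), and 8 with an adjusted p under 0.05 and no minimum fold. For KO pools against Epcam+ve samples, 1 was called (Wif1) with edgeR, DESeq2, no filter, the replicate block and an adjusted p under 0.05, against 0. Leaving out single libraries also changed the calls, with 1 library left in a group. The log2 fold change of Wif1 was then 4.93 to 6.35. For KO against HE pools, 1 was called by the criterion of the methods (Fzd7) and 0 to 3 without single libraries. Without KO pool 1 there were 3, with 373 of 13326 genes. For Epcam+ve samples against WT crypts, 3 were called with no minimum fold and 0 to 2 without single libraries (Fzd2 and Wnt2b without Epcam+ve sample 1, Fzd1 without sample 2). For KO against WT crypts, 1 was called (Fzd6) with the replicate block and with no minimum fold, and 0 to 1 without single libraries. For the difference between the lines, 0 to 3 were called without single libraries. Wif1 in crypts, which was never called, changed sign in the fit of both lines with the replicate block (0.029) and without WT crypt 1 (0.017; -0.33 to 0.017 over single libraries left out), and in eKO against control crypts without the library labelled eKO mouse 2 (-0.018; -0.018 to 0.51). The cause of these changes was not tested. All other alternatives kept the counts, and the block changed no other call. Same-numbered libraries name different animals. Their deviations correlated with 0.03 between HE pools and Epcam+ve samples, -0.24 between the genotypes of pools, and 0.59 and 0.36 for eKO and control crypts, and with 2 pairs the numbers were not taken as pairs. A crossed block for KO against HE pools, added after seeing the data, called 0 members and 85 genes, against 0 genes without a block.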
